A study of Mus musculus with 2 samples.

Results

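The regions described here were open chromatin found between genes in wild-type mouse mast cells and not called in mast cells lacking Dnmt3a. They were taken from 2 lists of ATAC-seq peaks, 1 per genotype. Intervals of both lists that shared at least 1 bp were merged on chromosomes 1 to 19 and X. The regions were selected on the peak calls themselves, so the calls and every peak value at them are descriptions. A merged region was kept when it held a wild-type peak and no knockout peak, overlapped no protein-coding gene and lay more than 1 kb from every protein-coding gene end. This gave 1224 wild-type-only intergenic regions of 23364 merged regions. Wild-type-only regions made up 16.9% of all merged regions and 19.9% of the 6137 intergenic ones, shares that the choice of regions itself fixes. For comparison, 2928 intergenic regions were shared by both lists and 1985 were knockout-only.

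The cells were mast cells, tissue granulocytes that bind IgE, derived in culture from the bone marrow of female mice. One culture came from DNMT3A-KO animals and the other from wild-type littermates matched for age and sex. Donor age is given as 3 weeks in the series' design and as 3 to 4 weeks in its growth protocol, and both cultures were kept in interleukin 3 for 4 weeks, with no other treatment, by which time more than 95% were positive for Kit and FcεRIα. The sources used here do not say how the Dnmt3a allele was made, in which cells it was deleted or how many animals gave each culture, and each genotype is 1 library.

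In ATAC-seq the Tn5 transposase cuts accessible DNA, so that fragments pile up where chromatin is open. Open sites far from gene starts are often enhancers, stretches bound by transcription factors that act on genes at a distance, and in mast cells such sites are bound by factors including GATA2, MITF, RUNX1 and PU.1. Dnmt3a is a de novo DNA methyltransferase that places methyl groups on CpG dinucleotides. Methylation was not measured in these libraries.

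There were 17170 peaks in wild-type cells and 19684 in knockout cells. The median summit pileup, the number of overlapping fragments at a peak's highest point, was 9 in both lists. The reads were single, so these are fragments as the peak caller placed them, and their lengths were not read. A region within 100 kb was present for 9 of 10 mast cell marker genes among wild-type peaks and for 10 of 10 among knockout peaks. Markers of other lineages were also found, with equal counts in both lists at 2 of 5 neutrophil, 2 of 4 macrophage and 2 of 4 T and NK cell genes. Wild-type and knockout counts were 0 and 1 of 4 for B cell, 3 and 4 of 4 for erythroid and megakaryocyte, and 1 and 0 of 2 for basophil genes. Dnmt3a (chromosome 12, 3801559 to 3914443) carried 6 wild-type and 5 knockout peaks, of which 2 wild-type peaks and 1 knockout peak had no partner in the other list. The stronger of these wild-type peaks had a −log10 q of 21.8, the highest of any wild-type-only region at or inside genes, and no wild-type-only intergenic region had Dnmt3a as its nearest gene. There was no replicate, so no difference below was tested between genotypes, and the intervals in brackets (exact Clopper-Pearson, 95%) cover counting error only. A list of peaks holds no signal outside its peaks, so the level of the knockout library at these regions is not known. All coordinates are 1-based on mm10.

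Sequence could be read for those regions that lay at the start of a long non-coding RNA (lncRNA), a transcript of non-coding type that the protein-coding rule does not remove. Of the 1224 regions, 29 (2.37%, interval 1.59 to 3.39) touched a window from 250 bases before to 50 bases after a lncRNA start. The share was 3.89% (3.22 to 4.66) of shared and 2.42% (1.79 to 3.19) of knockout-only intergenic regions. The windows below belong to the 6 regions with the highest −log10 q among those covering at least 100 bases of a window, followed by the window 25.8 kb from Myb, a gene for a transcription factor of blood progenitors. Each is a RefSeq sequence (GRCm38.p6, the build that mm10 names) on the strand of the lncRNA, 5′ to 3′, and the capitals mark the bases covered by the wild-type peak. They are shown as examples of the 29 wild-type-only intergenic regions that overlap a lncRNA start window, and a peak in a window need not reach the start itself.
Snhg16, chr11:116671410-116671709 (+ strand): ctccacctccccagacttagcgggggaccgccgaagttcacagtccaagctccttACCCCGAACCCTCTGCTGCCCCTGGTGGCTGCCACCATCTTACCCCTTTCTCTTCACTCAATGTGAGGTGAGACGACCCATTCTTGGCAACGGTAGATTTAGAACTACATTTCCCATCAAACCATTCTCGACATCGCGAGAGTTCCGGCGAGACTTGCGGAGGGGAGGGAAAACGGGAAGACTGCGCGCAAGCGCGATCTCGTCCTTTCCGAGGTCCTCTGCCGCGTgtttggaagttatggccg
2900041M22Rik, chr11:117610997-117611296 (+ strand): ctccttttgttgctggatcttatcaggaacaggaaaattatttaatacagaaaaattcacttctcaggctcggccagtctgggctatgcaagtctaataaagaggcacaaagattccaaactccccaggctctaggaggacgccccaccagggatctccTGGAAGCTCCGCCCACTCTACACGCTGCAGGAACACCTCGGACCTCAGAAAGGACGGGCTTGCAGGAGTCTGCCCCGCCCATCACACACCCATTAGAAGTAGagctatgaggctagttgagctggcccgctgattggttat
Dleu2, chr14:61682324-61682623 (- strand): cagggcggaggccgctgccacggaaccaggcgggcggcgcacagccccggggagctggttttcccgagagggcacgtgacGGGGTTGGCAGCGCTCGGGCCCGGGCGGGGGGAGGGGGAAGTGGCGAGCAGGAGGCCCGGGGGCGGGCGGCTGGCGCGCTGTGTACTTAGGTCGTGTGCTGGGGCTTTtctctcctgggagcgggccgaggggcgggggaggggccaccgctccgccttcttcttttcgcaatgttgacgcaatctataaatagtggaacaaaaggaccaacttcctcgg
2310034G01Rik, chr19:46348939-46349238 (- strand): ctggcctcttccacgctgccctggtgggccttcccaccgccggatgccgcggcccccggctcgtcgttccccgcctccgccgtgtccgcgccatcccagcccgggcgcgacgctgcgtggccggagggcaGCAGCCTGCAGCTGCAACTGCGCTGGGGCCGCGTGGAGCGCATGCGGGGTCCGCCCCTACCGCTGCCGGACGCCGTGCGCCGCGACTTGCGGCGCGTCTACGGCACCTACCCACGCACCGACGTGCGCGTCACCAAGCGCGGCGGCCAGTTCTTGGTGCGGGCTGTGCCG
Gm39852, chr2:74606183-74606482 (- strand): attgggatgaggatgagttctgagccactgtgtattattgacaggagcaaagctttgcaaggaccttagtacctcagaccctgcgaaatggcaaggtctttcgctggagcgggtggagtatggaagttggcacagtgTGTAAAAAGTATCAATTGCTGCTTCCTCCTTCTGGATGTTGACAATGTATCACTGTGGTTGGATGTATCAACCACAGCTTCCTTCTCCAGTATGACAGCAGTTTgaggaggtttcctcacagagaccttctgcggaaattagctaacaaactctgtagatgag
Chaer1, chr5:77140256-77140555 (- strand): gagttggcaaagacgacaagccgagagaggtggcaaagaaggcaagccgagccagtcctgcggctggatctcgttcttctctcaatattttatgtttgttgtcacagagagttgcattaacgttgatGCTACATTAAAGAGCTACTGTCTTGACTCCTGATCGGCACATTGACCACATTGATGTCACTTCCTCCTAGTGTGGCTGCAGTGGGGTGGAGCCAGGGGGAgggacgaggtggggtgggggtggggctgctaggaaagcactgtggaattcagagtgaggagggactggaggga
Gm33619, chr10:21186694-21186993 (+ strand): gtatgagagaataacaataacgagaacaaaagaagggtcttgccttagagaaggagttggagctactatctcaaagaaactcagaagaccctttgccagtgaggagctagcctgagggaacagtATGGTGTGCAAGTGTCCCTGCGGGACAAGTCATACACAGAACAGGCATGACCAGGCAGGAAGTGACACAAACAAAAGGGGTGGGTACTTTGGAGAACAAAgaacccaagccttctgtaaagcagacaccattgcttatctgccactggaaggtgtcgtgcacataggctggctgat

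Snhg16, a host gene of small nucleolar RNAs, had the strongest of these regions (chromosome 11, 116671465 to 116671691). Its summit pileup was 10, its −log10 q 9.17 and its fold enrichment over local background 8.15. The peak covered 227 of the 300 bases of the window, which held 22 CpG dinucleotides. At Dleu2, the host transcript of miR-15a and miR-16-1, the region (chromosome 14, 61682436 to 61682543) had a pileup of 12 and a −log10 q of 7.61, and a knockout peak lay 855 bp away. The 2310034G01Rik window was the richest in CpG, with 46 of them and a G + C content of 76.3%. The Gm33619 window near Myb held 3 CpG dinucleotides at 48% G + C, and a knockout peak lay 169 bp from its region.

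The windows were read for CpG content, since CpG is the substrate of Dnmt3a. Regions covering at least 50 bases of a window gave 22 windows for the wild-type-only class. Their median ratio of observed to expected CpG was 0.431 (quartiles 0.322 and 0.815), and 8 of 22 (36.4%) reached 0.6, a limit often used for CpG islands. The median was 0.558 in 124 windows of shared regions, with 57 (46.0%) at or above 0.6, and 0.368 in 43 windows of knockout-only regions, with 7 (16.3%). Over all 11574 lncRNA windows it was 0.245, with 14.0% at or above 0.6. The wild-type-only windows therefore lay between the other classes, and they ranged from 0 to 46 CpG dinucleotides. With 22 windows the difference from either class was not tested. The 22, 124 and 43 windows came from 21, 110 and 38 regions, and some lncRNA genes gave several windows. The windows are therefore not independent of each other, here and in the motif counts below.

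**Figure D1:**
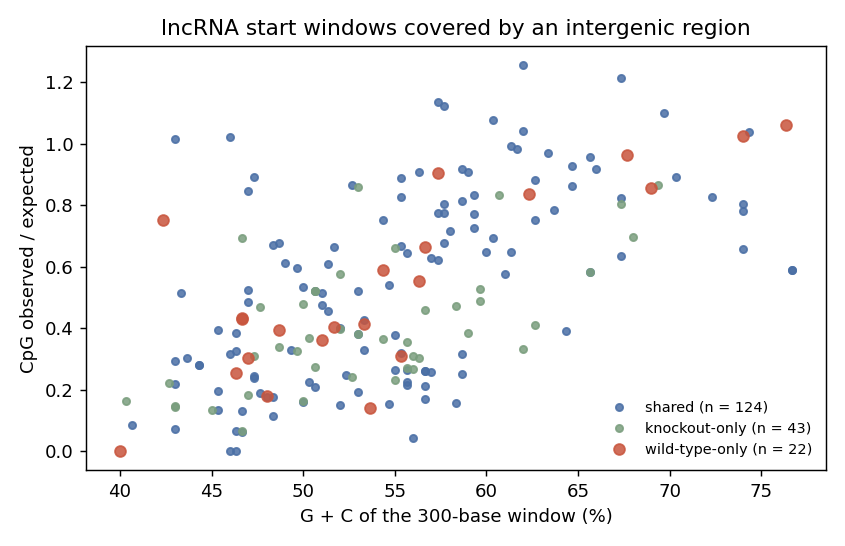
Each point is a 300-base window at a lncRNA start covered over at least 50 bases by an intergenic region, with its G + C content in percent on the x axis and its ratio of observed to expected CpG on the y axis. The 22 wild-type-only windows run from 40% to 76.3% G + C and are spread over the range of the 124 shared windows.

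Short motifs were counted on both strands of the same windows. AGATAA, read by GATA factors, was in 5 of 22 wild-type-only windows (22.7%, interval 7.82 to 45.4), 14 of 124 shared windows (11.3%), 10 of 43 knockout-only windows (23.3%) and 14.0% of all lncRNA windows. TGTGGT, read by RUNX factors, was in 4 of 22 (18.2%), 33 of 124 (26.6%), 14 of 43 (32.6%) and 20.1% of these sets in the same order. AGGAAGT, a form read by PU.1 and its ETS relatives, was in 4 of 22 (18.2%), 20 of 124 (16.1%), 11 of 43 (25.6%) and 9.88%, and it includes the shorter GGAA, which stood in 22 of 22 windows and in 96.4% of all. TGANTCA, the AP-1 motif, was in 3 of 22 (13.6%), 12 of 124 (9.68%), 7 of 43 (16.3%) and 9.31%. CACATG, a form read by MITF, was in 2 of 22 (9.09%, interval 1.12 to 29.2), 24 of 124 (19.4%), 6 of 43 (13.95%) and 18.96%. The interval of each of these wild-type-only shares took in the share of all lncRNA windows. Within the capitals printed above, AGGAAGT stands in the Chaer1 and Gm33619 sequences and TGTGGT in the Gm39852 and Chaer1 sequences, on one strand or the other. A match is only a run of letters and shows no bound factor.

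Most wild-type-only intergenic regions were weak and narrow. Their median summit pileup was 6 fragments (quartiles 5 and 7, range 3 to 19), and 769 of 1224 (62.8%) had a pileup of up to 6. Shared intergenic regions had a median of 9 (range 4 to 132) in the wild-type list, and 23.2% of them had a pileup of up to 6. Their pileups of 113 to 132 all lay in a stretch of chromosome 17 (39843348 to 39848798). The local background there was 40.7 to 43.9 fragments, against a median of 0.25 in shared intergenic regions. The median −log10 q, the authors' measure of peak strength corrected for multiple tests, was 6.0 against 9.10, and the median fold over local background 5.74 against 7.83. The regions were 100 to 357 bp wide with a median of 107 bp, and 486 (39.7%) had the lowest width in the lists, 100 bp. The lowest pileup called anywhere in the knockout list was 3, and 25.1% of knockout peaks had a pileup of up to 6. These values belong to the calls that chose the regions and are given as a description.

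**Figure D2:**
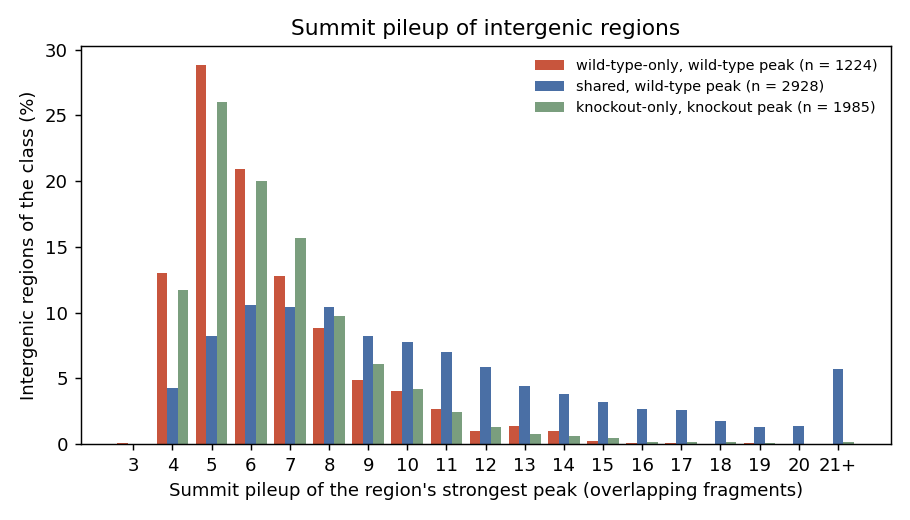
Bars give the share of intergenic regions (percent, y axis) at each summit pileup in overlapping fragments (x axis, values of 21 and over pooled), for wild-type-only, shared and knockout-only regions. Wild-type-only and knockout-only regions both peak at 5 fragments, while shared regions extend to 132, in a stretch of high local background on chromosome 17.

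The fraction of wild-type sites without a knockout partner fell with pileup in every kind of place. Among intergenic sites holding a wild-type peak it was 53.1% (769 of 1447) at a pileup of up to 6, 27.6% (325 of 1178) at 7 to 9 and 8.51% (130 of 1527, interval 7.16 to 10.03) at 10 and over. Inside genes the last class gave 9.46% (8.33 to 10.7) and at gene ends 5.16% (4.49 to 5.89). In this class the interval at gene ends overlapped neither of the others. The class has no upper limit, and it held 3956 of 6722 gene-end sites against 1527 of 4152 intergenic ones. Pileups within it were not matched between places, and the difference between places was not tested.

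The 130 regions with a pileup of 10 and over included the strongest of all, 34.1 kb from Lrrc32, which encodes the cell surface anchor of latent TGF-beta. It lay at chromosome 7, 98535921 to 98536116, with a pileup of 19, a local background of 0.51 fragments, a fold of 13.2 and a −log10 q of 19.9, and the nearest knockout peak was 14.6 kb away. The region ranked next (chromosome X, 121654725 to 121654891, pileup 13, −log10 q 16.6) stood alone, 740 kb from Nap1l3, a nucleosome assembly protein gene, and 1448 kb from any knockout peak. The third lay in the lncRNA gene Gm4610, 40.8 kb from Bcar3, an adaptor gene (chromosome 3, 122378730 to 122378944, pileup 13, −log10 q 15.4). These 3 regions were the only ones with a −log10 q of at least 15, and 71 (5.80%) reached 10. The 3 just below them, with Osbpl3 (1.37 kb away), Lrrc74a (26.9 kb) and Lcorl (779 kb) as nearest genes, had a pileup of 11 or 12 and −log10 q values from 13.5 to 13.8. At the lower end of the list, a region 43.8 kb from Ptger3 (chromosome 3, 157688524 to 157688623), which encodes a prostaglandin E receptor, had a pileup of 3 and a −log10 q of 2.67.

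The 6 next strongest regions lay 13.9 to 441 kb from their nearest genes. A region 13.9 kb from Btg2, an antiproliferative gene (chromosome 1, 134093027 to 134093261), had a pileup of 14 and lay in the lncRNA gene Gm32039. The region near Ly6e, a GPI-anchored surface protein gene (chromosome 15, 74930910 to 74931039), had a pileup of 13 and lay in the lncRNA gene Gm39556. That near Cbfa2t3, a corepressor of the GATA and TAL1 complex (chromosome 8, 122736204 to 122736398), had a pileup of 15 and lay in the lncRNA gene C230057M02Rik. Lta4h, the leukotriene B4 synthesis enzyme gene, Runx1, a transcription factor gene of blood formation, and Fam241a were nearest to regions of equal strength (pileup 11, −log10 q 13.0) at 50.5, 354 and 441 kb. A region 12.6 kb from Lmo2, a bridging factor of the same complex as TAL1 (chromosome 2, 103945041 to 103945264, pileup 15, −log10 q 12.8), lay in the lncRNA gene Gm39896 and 627 bp from a knockout peak.

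Single genes rarely gathered many of these regions. The nearest genes numbered 1063, of which 939 had 1 region, 97 had 2, 18 had 3, 8 had 4 and 1 had 5. The gene with 5 was Cited2, a transcriptional coregulator gene, with 6 shared and 4 knockout-only intergenic regions beside them. The 8 with 4 were Dad1, Hs6st1, Opa1, Runx1, Setd4, Tle3, Usp46 and Wnt7b. Regions nearest to Dad1 included some inside Tcra, a T cell receptor locus that is not typed as protein-coding. Ccdc91, Enkur, Pde4b and Tnrc6c each had 3 wild-type-only regions and no other intergenic region of either list. Pde4b encodes a cAMP phosphodiesterase, and its 3 regions lay 33.8 to 50.1 kb away with −log10 q values of 4.02 to 6.20. Myc had 3 wild-type-only, 4 shared and 7 knockout-only regions, and its wild-type-only ones lay 255 to 740 kb from the gene.

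Counted by the stretch between neighbouring protein-coding genes, the regions fell into 1026 of the 3172 stretches that held any intergenic region. Of the regions, 637 (52.0%) lay in a stretch that also held a shared region, 140 in one with knockout-only but no shared regions, and 447 (36.5%) in one with neither. Of the stretches with a wild-type-only region 883 held 1, and 11 held 4 or more. The stretch with the most, 757 kb between Runx1 and Setd4 on chromosome 16, held 8 wild-type-only, 16 shared and 3 knockout-only regions. Its wild-type-only regions had pileups of 6, 6, 11, 9, 5, 7, 5 and 6 in order from Runx1. Shared regions there had wild-type pileups of 6 to 30, and the strongest of them (chromosome 16, 93219606 to 93219999) had a knockout pileup of 16. So 7 of the 8 wild-type-only regions had a pileup of 9 or less. The weakest (93266385 to 93266491, −log10 q 3.35) lay 28 bp from a knockout peak.

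The 153 kb between Wnt7b, a Wnt ligand gene, and Ppara, a fatty acid receptor gene, held 6 wild-type-only, 1 shared and 1 knockout-only region. The shared region (chromosome 15, 85634427 to 85634933) was strong in both lists, with pileups of 35 and 40. A pair of the wild-type-only regions lay 100 and 593 bp from it, with pileups of 12 and 14 over a local background of 1.74 fragments, and the other 4 had pileups of 4, 5, 6 and 8. Between Opa1 and Hes1, a Notch target gene, 5 wild-type-only and 6 shared regions stood beside 0 knockout-only ones, and the wild-type-only pileups were 14, 5, 5, 11 and 7. In the 76.1 kb between Cbfa2t3 and Acsf3 the 4 wild-type-only pileups were 5, 15, 10 and 13, with 2 shared and 2 knockout-only regions. The first 3 of these formed 1 of the 3 runs of 3 regions within 10 kb of each other, over 9759 bp with no shared or knockout-only region between them.

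**Figure D3:**
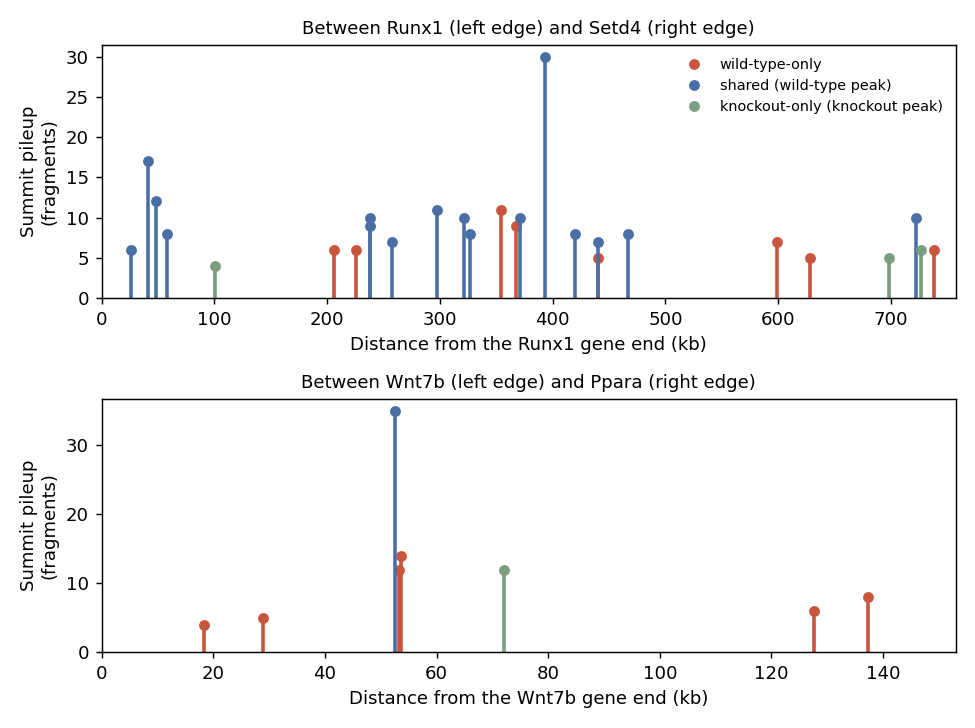
Vertical lines mark intergenic regions by their distance in kb from the gene at the left edge (x axis) and their summit pileup in fragments (y axis), in the wild-type list for wild-type-only and shared regions and in the knockout list for knockout-only regions. Between Runx1 and Setd4 the 8 wild-type-only regions stand among 16 shared ones, and between Wnt7b and Ppara 2 of the 6 stand beside the shared region with a pileup of 35.

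Few of the regions lay beside a knockout peak, and those that did lay close to it. In 146 of 1224 (11.9%, interval 10.2 to 13.9) a knockout peak lay within 1 kb, mostly within 200 bp (108 regions). Within 5 kb there were 279 and within 50 kb 954. The median gap was 15.9 kb (quartiles 5.58 and 43.9 kb), and 270 regions (22.1%) were more than 50 kb from any knockout peak. Of the 146, the knockout peak belonged to a shared region in 84 and to a knockout-only region in 62. The 5 closest lay 0 to 3 bp from a knockout peak, near Akirin2, Nemp2, Mn1, Atp5mpl and Plpp3. The first of them touched a knockout peak without sharing a base (chromosome 4, 34528720 to 34528819). Regions beside a knockout peak had a median pileup of 7 and a local background of 0.29 fragments, against 6 and 0.13 for the others. Of them 25.3%, against 8.63% of the others, had a pileup of 10 and over. Their median −log10 q was nevertheless the lower, 5.52 against 6.08. Among knockout-only intergenic regions 8.61% (7.42 to 9.94) had a wild-type peak within 1 kb. These shares were not adjusted for the lengths of the lists searched, 19684 knockout and 17170 wild-type peaks, and their difference was not tested.

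**Figure D4:**
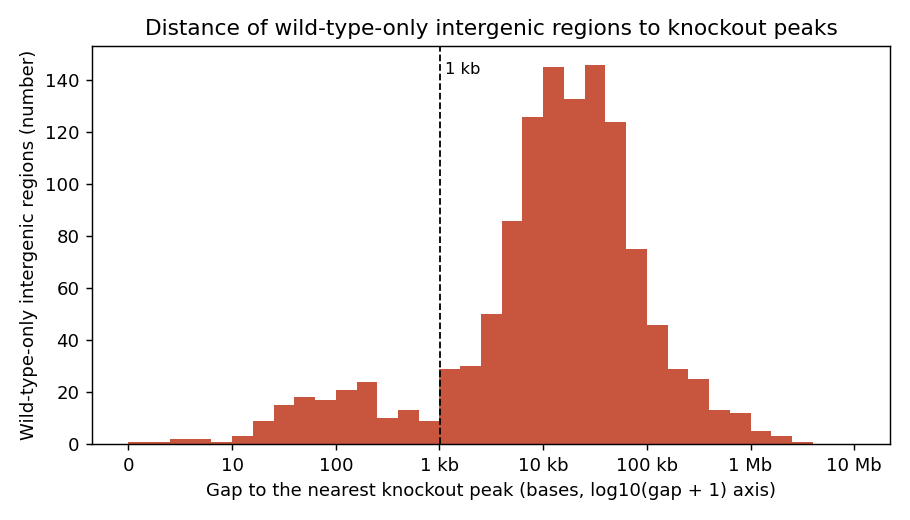
The histogram counts wild-type-only intergenic regions (y axis) by the gap in bases to the nearest knockout peak (x axis, log10 of the gap plus 1). A small group of 146 lies to the left of the dashed line at 1 kb, and most of the rest lies around the median of 15.9 kb.

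Wild-type-only regions of high summit pileup lay close to shared regions more often than shared regions of the same pileup class lay close to each other. The classes are of pileup only, and regions were not compared here by −log10 q, which ranks them otherwise. Within 10 kb of a shared region were 309 wild-type-only regions (25.2%, interval 22.8 to 27.8), and 25.3% (23.7 to 26.9) of shared intergenic regions had another shared region that close. At a pileup of up to 6 they were 115 of 769 (interval 12.5% to 17.7%) and 97 of 678 (11.8% to 17.2%). At 7 to 9 they were 36.3% (31.1 to 41.8) and 21.6% (18.9 to 24.5), and at 10 and over 58.5% (49.5 to 67.0) and 32.9% (30.4 to 35.4). Knockout-only regions gave 14.9%, 27.7% and 51.9% (45.0 to 58.7) in the same classes, so the wild-type-only and knockout-only intervals overlapped in each class. When regions within 1 kb of a shared one were left out, a pileup of 10 and over still gave 46.5% (36.5 to 56.7, 47 of 101) and 26.5% (24.1 to 29.0). The local background moved with this pattern. Its median at a pileup of 10 and over was 0.53 fragments in wild-type-only and 0.40 in shared regions, against 0.12 in both at a pileup of up to 6. Its part in the result was not tested.

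**Figure D5:**
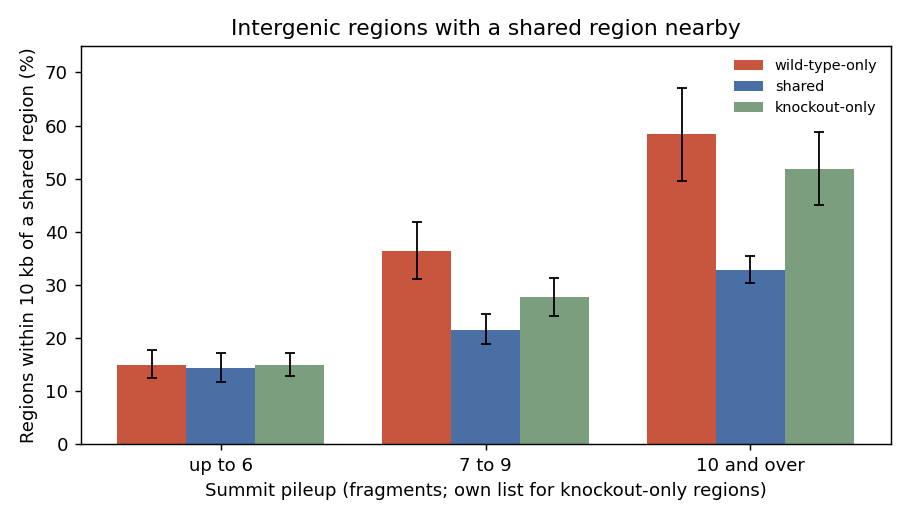
Bars give the percentage of intergenic regions with a shared region within 10 kb (y axis) in 3 classes of summit pileup in fragments (x axis), with exact 95% binomial intervals. The wild-type-only bar exceeds the shared bar at 7 to 9 and at 10 and over, and does not at up to 6.

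Distance to genes differed little between the classes. The median gap from a wild-type-only intergenic region to its nearest protein-coding gene was 20.6 kb (quartiles 8.06 and 58.5 kb), against 22.2 kb for shared and 21.9 kb for knockout-only regions. More than 50 kb from any gene were 352 (28.8%, interval 26.2 to 31.4), 30.2% (28.6 to 31.9) and 28.4% (26.4 to 30.5). The fullest band was 10 to 50 kb, with 510 of 1224 regions (41.7%), and 19 (1.55%) lay beyond 500 kb. The farthest was 1380 kb from Epha7, a receptor kinase gene (chromosome 4, 30347668 to 30347862, pileup 6). Next came regions 1208 kb from G6pd2 (pileup 5), 1065 kb from Zeb2, a zinc finger gene of myeloid cells (pileup 7), 1035 kb from Lrrc4c (pileup 14) and 963 kb from Cdh8 (pileup 4). Around the limit of the rule, the nearest regions kept were 1026, 1035 and 1041 bp from Lrrk1, Ly9 and Mctp2, and the wild-type-only regions just inside it were 1000, 996 and 992 bp from Macir, Tnfrsf11b and Cd300ld3. Both sets had pileups of 4 to 6.

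Among the 1224 regions, 299 (24.4%, interval 22.0 to 26.9) overlapped a gene or pseudogene not typed as protein-coding. Of these 274 overlapped a lncRNA gene, 10 a pseudogene and 3 a tRNA gene. Another 6 overlapped a gene of the type other, which includes the T cell receptor loci Tcra and Tcrb. The share was 24.7% (23.2 to 26.3) for shared and 22.1% (20.3 to 24.0) for knockout-only intergenic regions, and the intervals overlapped. The term intergenic therefore refers to protein-coding genes, and 877 regions lay outside and over 1 kb from genes of every type.

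Of the regions, 1026 (83.8%) lay within 100 kb of their nearest gene and were counted by gene list. Among all intergenic sites with a wild-type peak within that distance 29.8% were wild-type-only. Of 27 mast cell transcription factor genes, 4 had a wild-type-only region, and the list counted 4 wild-type-only, 20 shared and 11 knockout-only regions. Beside Lmo2 these were Bhlhe40 (29.7 kb, pileup 9, −log10 q 10.4), Gfi1b, a repressor gene of blood progenitors (11.2 kb, pileup 9), and Myb (25.8 kb, pileup 6). Of 25 mast cell effector genes, 2 had one, with 3 wild-type-only, 13 shared and 3 knockout-only regions. They were Hs6st1, a sulfotransferase of heparan sulfate chains (3.25 kb, pileup 10, and 92.3 kb, pileup 6), and Csf2rb, the beta chain of interleukin 3 family receptors (2.39 kb, pileup 9, 1348 bp from a knockout peak).

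IgE receptor and Kit signalling genes counted 4 wild-type-only, 18 shared and 11 knockout-only regions over 41 genes. The strongest lay 19.3 kb from Itpr2, a calcium release channel gene (chromosome 6, 146521601 to 146521769, pileup 10, −log10 q 11.4). The others were nearest to Inpp4b, a phosphoinositide phosphatase gene (23.7 kb, pileup 6), Lat, the signalling adaptor gene (6.65 kb, pileup 6), and Pik3cg, a PI3 kinase subunit gene (9.43 kb, pileup 5). Cytokine and chemokine genes counted 8, 23 and 17 over 35 genes. Of their 8 wild-type-only regions 5 lay at chemokine genes of chromosome 11, with 2 at Ccl9 (both pileup 5) and 1 each at Ccl1 (76.0 kb, pileup 9, −log10 q 11.1), Ccl2 (33.4 kb, pileup 5) and Ccl6 (4.49 kb, pileup 5). Ccl17, a chemokine gene on chromosome 8, had 1 at 4.17 kb (pileup 8).

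Inflammatory transcription factor and feedback genes counted 7 wild-type-only, 35 shared and 28 knockout-only regions over 47 genes. Dusp1, a MAP kinase phosphatase gene, had the strongest (chromosome 17, 26503100 to 26503249, 2.34 kb away, pileup 11, −log10 q 10.2). Tnfaip3, an inhibitor gene of NF-kB signalling, had 2 at 35.8 and 71.8 kb (both pileup 5) and Batf, an AP-1 family gene, 2 at 6.62 and 16.4 kb (pileups 5 and 6). Fosl2 had 1 that lay 18 bp from a knockout peak. DNA methylation genes counted 2, 2 and 2 over 16 genes. One lay 1737 bp from Dnmt1, the maintenance methyltransferase gene (chromosome 9, 20961626 to 20961794, pileup 6, −log10 q 7.32, 5.53 kb from a knockout peak), and the other 60.1 kb from Gadd45g.

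Stem and progenitor genes counted 3 wild-type-only, 6 shared and 2 knockout-only regions over 22 genes. The strongest lay 61.4 kb from Mecom, a stem cell transcription factor gene (chromosome 3, 29889770 to 29889895, pileup 10, −log10 q 11.8), with the nearest knockout peak 177 kb away. Cd34, a progenitor surface marker gene, had 2 (1.07 and 15.3 kb, pileups 4 and 7), the latter 177 bp from a knockout peak. Cell cycle genes counted 1, 6 and 9 over 21 genes, the 1 being 36.1 kb from Cdkn2a, a cell cycle inhibitor gene, with a pileup of 4 and a knockout peak 14 bp away. Housekeeping genes counted 3, 7 and 4 over 18 genes, at Ywhaz and Actb. As shares of sites with a wild-type peak, the wild-type-only regions were 14.3% for cell cycle, 16.7% for mast cell and for inflammatory transcription factors, 18.2% for IgE and Kit signalling, 18.8% for mast cell effectors and 25.8% for cytokine genes, beside the 29.8% of all, and 30% for housekeeping, 33.3% for stem and progenitor and 50% for DNA methylation genes. Each rests on 1 to 8 wild-type-only regions, and no list was tested.

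MicroRNA genes are not protein-coding, so regions beside them could be kept. A hairpin lay within 5 kb of 12 wild-type-only regions (0.980%, interval 0.508 to 1.71), 24 shared regions (0.820%, 0.526 to 1.22) and 11 knockout-only regions (0.554%, 0.277 to 0.989). Among the 12 were hairpins of well studied families. For 6 of them 1 mature arm is printed below from RefSeq (GRCm38.p6), with the seed, bases 2 to 8, in capitals, because the seed sets which messenger RNAs a microRNA pairs with.
mmu-miR-17-5p: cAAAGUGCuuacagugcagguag
mmu-let-7b-5p: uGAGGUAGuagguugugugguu
mmu-miR-21a-5p: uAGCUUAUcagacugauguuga
mmu-miR-322-5p: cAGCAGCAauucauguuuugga
mmu-miR-22-3p: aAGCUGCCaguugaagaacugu
mmu-miR-23a-3p: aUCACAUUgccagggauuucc

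The 6 seeds differ from each other. The region at Mir17, the first hairpin of a cluster that promotes growth of blood cells, lay 1370 bp upstream of the hairpin (chromosome 14, 115042175 to 115042300, pileup 11, −log10 q 7.59), with a knockout-only region within 5 kb. That at Mir22 lay 3029 bp upstream (chromosome 11, 75460503 to 75460686, pileup 17, −log10 q 8.08) and 466 bp from a knockout peak. At Mir23a the region lay 4610 bp upstream (chromosome 8, 84203789 to 84203907, pileup 14, −log10 q 5.12) and 20 bp from a knockout peak. Mir322 had a region 2817 bp upstream in a lncRNA gene (chromosome X, 53057167 to 53057303, pileup 7), 69.0 kb from any knockout peak. Regions downstream of the hairpin lay 2048 bp from Mirlet7b (pileup 6, 55.4 kb from a knockout peak, in the stretch between Wnt7b and Ppara) and 2514 bp from Mir21a (pileup 10, 5.26 kb from a knockout peak).

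By chromosome, wild-type-only regions made up 23.6% (chromosome 6) to 35.7% (chromosome X) of intergenic sites with a wild-type peak. The interval of chromosome X, 25.6 to 46.9 for 30 of 84 sites, included the 29.5% of all chromosomes. Knockout-only intergenic regions outnumbered wild-type-only ones on 20 of 20 chromosomes, with 0.617 wild-type-only regions per knockout-only region over the genome. The counts were nearest to each other on chromosome X, 30 against 33, and farthest apart in proportion on chromosome 8, 54 against 115. The knockout list was the longer. With that list reduced to its strongest peaks by −log10 q, so that both had equal numbers, 1431 regions were wild-type-only and intergenic, against 1224. Taking out knockout peaks cannot lower this number. The knockout-only number at equal list lengths is not given here, so the balance of the classes at equal lengths is not known.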

How the data were processed

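The 2 deposited narrowPeak lists, 1 per genotype, were analysed. Trimmomatic, Bowtie2 and MACS2 with mm10 and GRCm38 are named in the submitters' processing notes. Their versions and thresholds, and whether reads were moved to the transposase cut, were not given in the sources used here. Such a move would shift peak edges slightly. Libraries were 50 bp single reads at a stated depth of 10 M, per the labels' protocols. Per the file layout the authors deposited for each peak a score (10 times the −log10 q), a fold, read as the ratio of summit to local background, and the −log10 of its p-value and q-value. The summit pileup was solved from the fold and −log10 p with a pseudocount of 1 and came out whole for 100% of peaks (tolerance 0.001 in −log10 p). These values describe or rank peaks within their own list. Pileups of both lists are set side by side without scaling.

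Merging, distances and intervals used Python 3.11.15, NumPy 2.4.6, pandas 2.3.3, SciPy 1.17.1 and matplotlib 3.10.9. A distance is the number of bases between 2 intervals. Genes, hairpins and sequences came from RefSeq tables of GRCm38.p6, with 21627 protein-coding genes on the chromosomes used and no strand or exons. The planned G + C, CpG, repeat and motif values of whole regions were replaced by those of 300-base lncRNA start windows, since no genome sequence was used here. All 13 planned motifs were counted, and those read by GATA, RUNX, PU.1 and ETS, AP-1 and MITF factors are described. The steps recovered 100% of 294 simulated regions and 245 simulated pileups, which checks the code only.

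The regions, gene lists and measures were chosen with earlier results of these data known, and the lncRNA windows, microRNA hairpins, stretches between genes and classes by knockout distance after values were seen. The rule for named genes took the 12 strongest regions, genes with the most regions, up to 4 genes per list, the 5 strongest over non-coding genes, the 5 nearest to a knockout peak, the 5 farthest from genes, those at the 1 kb limit and the longest runs. Of 349 listed genes 349 were in the gene table. Alternatives are in the closing section.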

Additional observations from a re-analysis of the deposited data

How the results depend on the processing

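No paired analysis was possible because there was 1 library of each genotype. Of 63 values from 9 alternatives, 47 stayed within the interval of the reported share or within 1.5 times the reported number, which was so for the number of regions (877 to 1642 against 1224) and for the share over 50 kb from a gene under every alternative run. With a reciprocal overlap of 50% the share of wild-type-only regions that are intergenic was 28.9%, the share within 1 kb of a knockout peak 34.3% (it then counts overlapping peaks) and within 10 kb of another such region 11.9%, against the reported 31.0%, 11.9% and 7.92%. With summits within 200 bp the share within 1 kb of a knockout peak was 9.34%. Counting a knockout peak within 1 kb as shared gave 33.9% intergenic, 0% within 1 kb by construction, 20.4% within 10 kb of a shared region and 5.84% within 10 kb of another. A −log10 q of at least 5 gave 5.58% within 10 kb of another in both lists and 5.59% on the wild-type side. Gene ends of 2.5 kb gave 28.8% intergenic. With all gene types 22.2% were intergenic, 0% overlapped a non-coding gene by construction, 9.69% had a knockout peak within 1 kb, 21.9% a shared region within 10 kb and 6.27% another region within 10 kb. The cause of the other shifts was not tested. The alternatives planned for G + C, CpG, repeats and motifs were not run. The regions had a median pileup of 6 fragments, and the part of sequencing depth in their calls was not tested.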

Other observations

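Genes on the lists of other cell types also had wild-type-only intergenic regions within 100 kb. A place on such a list does not show that a gene is silent in mast cells. Macrophage genes counted 4 wild-type-only, 5 shared and 5 knockout-only regions over 18 genes. As a share of sites with a wild-type peak, wild-type-only regions were 44.4% (4 of 9) for macrophage, 50% (1 of 2) for B cell and for neuron and liver, 100% (1 of 1) for basophil, 16.7% (1 of 6) for neutrophil and for erythroid and megakaryocyte and 0% (0 of 3) for T and NK cell genes, beside 29.8% of all. Adgre1, which encodes the F4/80 antigen, had 1 at 14.0 kb (pileup 8), Ccr2, a chemokine receptor gene, 1 at 3.58 kb (pileup 5), Fcgr1, an IgG receptor gene, 1 at 4.75 kb (pileup 6) and Maf 1 at 76.6 kb (pileup 5). Igll1, a surrogate light chain gene of B cell precursors, had the strongest of these lists (chromosome 16, 16865355 to 16865475, 1369 bp away, pileup 9, −log10 q 10.6). Prss34, a protease gene of the basophil list, had 1 at 2.89 kb (pileup 5). Ctsg, a protease gene of the neutrophil list, had 1 at 6.30 kb (pileup 6), and Gp1bb, a platelet receptor gene, 1 at 2.43 kb (pileup 7). T and NK cell genes had 0, beside 3 shared and 3 knockout-only regions over 16 genes, and Neurod1 had the 1 region of 20 neuron and liver genes. The T cell receptor loci Tcra and Tcrb are not typed as protein-coding, so regions in them were given to neighbouring genes. Wild-type-only regions lay in both loci, with Dad1, Try4 and Prss2 as nearest protein-coding genes. What share of the cells carried these sites was not measured.

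Some regions stood in stretches without any knockout peak over megabases. Tlr4, the lipopolysaccharide receptor gene, had 2 wild-type-only regions, at 8.07 kb (chromosome 4, 66854647 to 66854747, pileup 5, −log10 q 6.16) and 30.7 kb (66877257 to 66877359, pileup 7, −log10 q 8.49), and no other region of either list was nearest to it. The nearest knockout peak was 2200 kb from the stronger of them. The greatest distance to a knockout peak, 3351 kb, belonged to a region 413 kb from Cdh9 (chromosome 15, 16315316 to 16315509, pileup 6). Shared regions were just as far from these Tlr4 and Cdh9 regions, at 2200 and 3351 kb. The nearest other wild-type-only intergenic region lay about 4280710 bp from the Cdh9 one. Intergenic peaks of the wild-type list were thus also sparse around it. The region nearest to Lrrc4c (chromosome 2, 98666780 to 98666883, pileup 14) was not such a case. A knockout-only region of like pileup, 13, lay at 98662835 to 98662943, so that each list had 1 peak of its own 3.84 kb apart. Local backgrounds there were 0.88 and 0.89 fragments, against a median of 0.14 in wild-type-only intergenic regions. No filter for artifact-prone stretches of the genome was applied to the lists here.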
